A study of Mus musculus with 4 samples.

Results

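The 10 genes described here encode the membrane-proximal machinery of the B cell receptor (BCR). They were chosen by name, though with earlier results of these data known. They are Cd79a, Cd79b, Lyn, Blk, Syk, Btk, Blnk, Plcg2, Vav1 and Prkcb, and all 10 were found among the 55401 genes of the count table. RNA was sequenced from follicular B (FOB) cells, mature B cells that circulate between the follicles of lymphoid organs, sorted from spleen as B220+CD93-CD23highCD21low. There were 2 WT libraries from Hnrnpf fl/fl mice without Cre and 2 Hnrnpf bKO libraries from Hnrnpf fl/fl mice with 1 Cre allele expressed in B cells. The bKO mice delete the gene of the RNA-binding protein hnRNP F in B cells. All mice were 7 weeks old and on the C57BL/6 background, both alleles of Hnrnpf were floxed in both groups, and the sources do not say how many mice gave each library. P-values therefore measure the spread between libraries, which may be technical. Effects of losing hnRNP F and of the Cre allele cannot be told apart in this design.

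The BCR is a membrane immunoglobulin that binds antigen but has almost no cytoplasmic part, so it signals through its partners CD79A and CD79B. The cytoplasmic tails of these chains each carry an immunoreceptor tyrosine-based activation motif (ITAM), whose tyrosines are phosphorylated by the Src-family kinases LYN and BLK. The kinase SYK then docks on the phosphorylated ITAM and phosphorylates the adaptor BLNK, which brings the kinase BTK and the phospholipase PLCG2 together. PLCG2 makes the messengers that release calcium and activate the protein kinase C encoded by Prkcb, while VAV1 activates small GTPases of the Rac family. In FOB cells this cascade gives the first signal of an antibody response, before help from T cells through CD40. hnRNP F is known mainly for regulating alternative splicing through runs of G in pre-mRNA.

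The coding stretch of the ITAM is shown for both signaling chains, because it is the part of the receptor on which the other members act. Both are 45 bases long, are written 5′ to 3′ with the codons of the 2 ITAM tyrosines in capitals, and were read from the GENCODE M21 transcripts of GRCm38.
Cd79a: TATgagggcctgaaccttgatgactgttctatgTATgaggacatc
Cd79b: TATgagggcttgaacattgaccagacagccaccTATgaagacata
In Cd79a (chromosome 7, plus strand) the stretch is split between bases 24901296 to 24901301 of exon 4 and 24901431 to 24901469 of exon 5, the last exon. In Cd79b (chromosome 11, minus strand) it is split in the same way, between 106312007 to 106312012 of exon 5 and 106311867 to 106311905 of exon 6, also the last exon. The 2 stretches are identical at 31 of 45 bases (68.9%), and each holds 1 run of 3 G, which forms where the 2 exons are joined (gag of the first, gg of the second).

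None of the 10 genes passed the comparison of mRNA abundance between Hnrnpf bKO and WT FOB cells (edgeR's quasi-likelihood test, adjusted p between 0.0914 and 0.993). Their log2 fold changes lay between −0.15 for Prkcb and 0.11 for Cd79b. Their 95% intervals, each taken alone, together ran from 83.6% to 116% of the WT level. Of 14123 genes tested, 6.97% passed the adjusted p threshold of 0.05, and so did 19.7% of the 707 genes with a mean count of at least 4744, that of the lowest of the 10 genes. Before adjustment, 4 of the 10 genes (Cd79a, Cd79b, Plcg2 and Prkcb) had p under 0.05, against 20.3% of all genes and 41.2% of the 707 abundant genes. DESeq2 also gave 0 of the 10 after adjustment and 4 before it. The median size of the log2 fold change without its sign was 0.07 over the 10 genes, 0.09 over the 707 abundant genes and 0.14 over all genes tested. All 10 were under 0.2 in size, which held for 83.2% of the abundant genes and 63.2% of all genes.

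The libraries held between 15698567 and 18908963 counts, and the mean count of the 10 genes ran from 4744 for Vav1 to 38795 for Cd79a. Together they took between 0.838% and 0.861% of all counts in each library. Standard errors of their log2 fold changes were between 0.04 and 0.06. In the same libraries the targeted gene Hnrnpf was at 20.1% of WT in Hnrnpf bKO cells, from 5780 and 6634 counts down to 1167 and 1194 (log2 fold change −2.32, adjusted p = 1.05e-10 from edgeR). By the same test 3 of the 8 follicular B cell markers were higher in Hnrnpf bKO and 3 lower. Of all genes tested 4.15% were higher and 2.83% lower, and of the 707 abundant genes 12.0% and 7.64%. The summed level of the 8 markers was 11989 to 12317 CPM (counts scaled to the library total) in WT and 11725 to 11857 in Hnrnpf bKO. This sum pools markers that rose with markers that fell and was not tested, so its lower value is not a loss shared by the 8. Markers of T cells summed to 36.8 to 54.7 CPM in WT and 33.6 to 47.1 in Hnrnpf bKO. The 8 myeloid markers summed to 13.3 to 19.8 CPM in WT and 23.9 to 34.97 in Hnrnpf bKO, and 2 of the 6 that could be tested, S100a8 and S100a9, were higher, while Cd14 held 0 to 3 counts per library. Lyn, Syk, Btk and Plcg2 are also expressed in myeloid cells, and the part of such cells in their counts was not tested. In sorted cells a change in the share of a cell type and in its RNA per cell cannot be told apart.

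**Figure D1:**
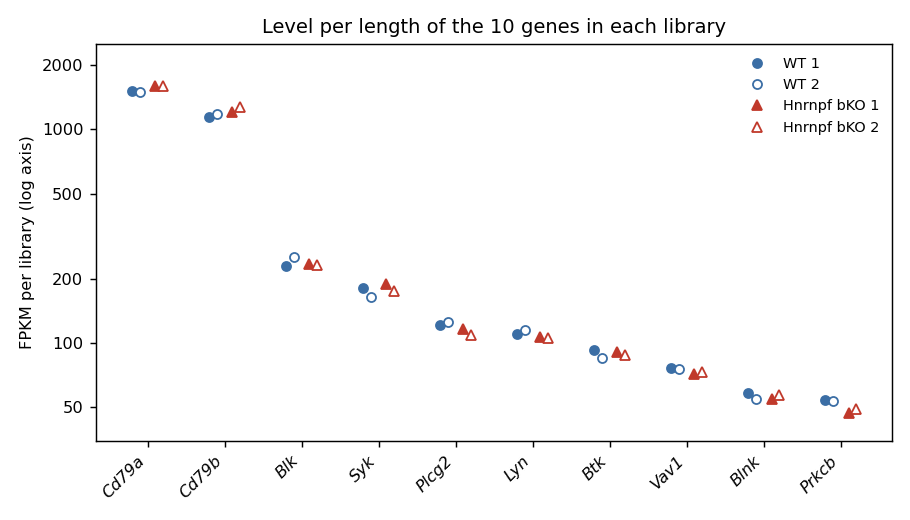
Level of each gene in each library on a log axis, in FPKM, the fragment count scaled to the exonic length of the gene and to the library total, with genes ordered by their mean in WT. Circles are WT and triangles Hnrnpf bKO, filled for replicate 1 and open for replicate 2. Cd79a and Cd79b lie at 1140 FPKM or more and the other 8 genes between 47.2 and 253.

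Cd79a and Cd79b, the signaling chains, had by far the highest FPKM of the 10 genes. Compared per length, Cd79a (ENSMUSG00000003379, chr7:24897381-24902197, plus strand) reached 1500.01 and 1495 FPKM in WT, against 1597 and 1584 in Hnrnpf bKO. Cd79b (ENSMUSG00000040592, chr11:106311341-106314762, minus strand) reached 1140 and 1175 FPKM in WT, against 1202 and 1271 in Hnrnpf bKO. For both chains, both Hnrnpf bKO libraries lay above both WT libraries, by a margin that did not pass the test. The Cd79a log2 fold change was 0.10 (95% interval 0.0046 to 0.19, adjusted p = 0.221 from edgeR). That of Cd79b was 0.11 (95% interval 0.0041 to 0.21, adjusted p = 0.225 from edgeR). The 2 proteins form a heterodimer, and the ratio of their mRNA levels overlapped between the groups. The FPKM of Cd79a over that of Cd79b was 1.32 and 1.27 in WT, against 1.33 and 1.25 in Hnrnpf bKO. Gm32220, a gene 98.7% identical to Cd79a over 298 bases, held from 243 to 306 counts per library, beside 35756 to 41710 for Cd79a. Coordinates of the 10 genes are those of the deposited table (GRCm38), and the most counted gene overlapping any of the 10 held at most 1.08% of its counts.

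By FPKM, Blk lay above Lyn, the other Src-family kinase of the 10 genes, and came next after the receptor chains. Lyn ranked below Syk and Plcg2 by FPKM. These ranks depend on the gene length used, which for Syk was 9362 bases, against 5363 in its main annotated transcript. Blk (ENSMUSG00000014453, chr14:63372836-63417037, minus strand), a kinase largely restricted to B cells, reached 229.6 and 253 FPKM in WT, against 235 and 233 in Hnrnpf bKO. Lyn (ENSMUSG00000042228, chr4:3678115-3813122, plus strand), which both starts BCR signaling and phosphorylates inhibitory receptors, reached 110.1 and 115 FPKM in WT, against 106.4 and 106.1 in Hnrnpf bKO. The groups overlapped for Blk, while both Hnrnpf bKO libraries were below both WT libraries for Lyn. The log2 fold changes were −0.03 for Blk (95% interval −0.15 to 0.08, adjusted p = 0.784 from edgeR) and −0.07 for Lyn (95% interval −0.18 to 0.03, adjusted p = 0.442 from edgeR). Gm11787, 98.8% identical to Lyn over 921 bases, held 1 to 5 counts per library. The sign for Blk turned when WT replicate 2 was left out (0.038). The FPKM of Lyn over that of Blk was 0.480 and 0.455 in WT, against 0.452 and 0.456 in Hnrnpf bKO, and the groups overlapped.

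Syk and Btk, the kinases that act after the Src family, overlapped between the groups. Syk (ENSMUSG00000021457, chr13:52583173-52648792, plus strand) reached 181 and 165 FPKM in WT, against 188 and 174 in Hnrnpf bKO. The log2 fold change of Syk was 0.08 (95% interval −0.04 to 0.20, adjusted p = 0.492 from edgeR). Btk (ENSMUSG00000031264, chrX:134542336-134583570, minus strand), the Tec-family kinase whose loss causes X-linked agammaglobulinemia in humans, reached 92.5 and 85.0 FPKM in WT, against 90.8 and 88.0 in Hnrnpf bKO. For Btk the log2 fold change was 0.02 (95% interval −0.10 to 0.14, adjusted p = 0.870 from edgeR), and −0.038 without WT replicate 2. These genes had the widest spread between WT libraries after Blk, with an SD of 6.69% of the mean CPM for Syk and 5.97% for Btk, against 6.79% for Blk.

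Blnk (ENSMUSG00000061132, chr19:40928927-40994535, minus strand), the adaptor that SYK phosphorylates, differed least of the 10 genes. It reached 58.1 and 54.8 FPKM in WT, against 54.7 and 57.2 in Hnrnpf bKO, so the groups overlapped almost completely. Its level in Hnrnpf bKO was 99.9% of WT (95% interval 92.2% to 108%, adjusted p = 0.993 from edgeR). Vav1 (ENSMUSG00000034116, chr17:57279100-57328031, plus strand), an exchange factor for Rac GTPases, reached 76.6 and 75.8 FPKM in WT, against 71.8 and 73.6 in Hnrnpf bKO. Both Hnrnpf bKO libraries were lower for Vav1, by a log2 fold change of −0.06 that did not pass the test (95% interval −0.16 to 0.05, adjusted p = 0.586 from edgeR).

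Plcg2 and Prkcb, the members furthest from the receptor, had the lowest values relative to WT. Plcg2 (ENSMUSG00000034330, chr8:117498291-117635142, plus strand), the main phospholipase C of BCR signaling, reached 122 and 125 FPKM in WT, against 116 and 109 in Hnrnpf bKO. Its level was 91.9% of WT (95% interval 85.4% to 98.9%, log2 fold change −0.12, adjusted p = 0.174 from edgeR). Prkcb (ENSMUSG00000052889, chr7:122288751-122634402, plus strand), the protein kinase C that leads from the BCR to NF-κB, reached 54.3 and 53.9 FPKM in WT, against 47.2 and 49.3 in Hnrnpf bKO. For Prkcb the log2 fold change was −0.15, with a 95% interval from 83.6% to 97.0% of WT. Prkcb had the lowest adjusted p of the 10 genes, 0.0914 from edgeR, and both Hnrnpf bKO libraries lay below both WT libraries for it and for Plcg2. When genes with low counts were kept in the test, the adjusted p of Prkcb was 0.0496, and in the other 11 alternative fits it lay between 0.0857 and 0.421.

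**Figure D2:**
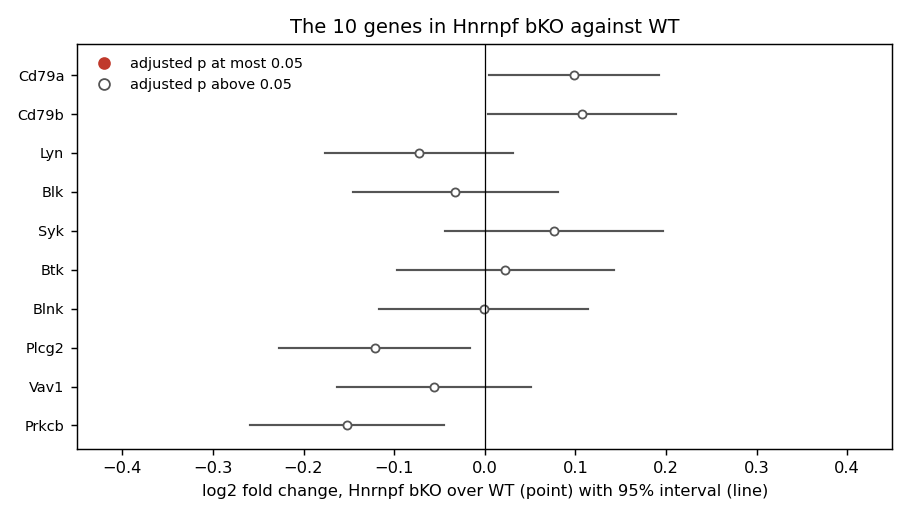
Log2 fold change of each of the 10 genes in Hnrnpf bKO over WT, as points with 95% intervals from edgeR as lines. The 10 points lie between −0.15 and 0.11 and are all open, since none passed the test.

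Seen along the cascade, the 2 receptor chains were above WT in both Hnrnpf bKO libraries, and Lyn, Plcg2, Vav1 and Prkcb were below it in both. The 2 groups of libraries did not overlap for these 6 genes of 10, against 50.4% of all genes tested and 67.8% of the abundant genes. The signs of 7 of the 10 genes were the same in all 12 alternative fits, and those of Blk, Btk and Blnk were not. The order of the 10 genes by FPKM was the same in the means of both groups, Cd79a, Cd79b, Blk, Syk, Plcg2, Lyn, Btk, Vav1, Blnk and Prkcb. It depends on the exonic length that FPKM divides by, and was not computed with other lengths. That length was 5991 bases for Blnk and 7651 for Prkcb, against 2097 and 2911 in their main annotated transcripts. Neighbours in this order did not overlap between WT libraries, but the steps were narrow from Plcg2 to Lyn (1.10-fold) and from Blnk to Prkcb (1.04-fold). From Cd79a to Prkcb the mean FPKM fell 27.7-fold in WT.

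None of the 10 genes has an event in the authors' deposited table of altered splicing, which lists 1556 events in 1173 genes. Where the mean count was 100 or more, 10.6% of genes have a listed event, as do 13.4% of the 707 abundant genes. The 10 genes have 164 exons in their main annotated transcripts, 144 of them internal, from 3 internal exons in Cd79a to 31 in Plcg2, and 36 annotated transcripts in all. The table holds significant events alone, so whether a given exon of these genes was tested is not known from it. Runs of at least 3 G were present in the spliced main transcript of every gene, from 15 in Cd79b to 88 in Syk, or 9.54 per kilobase in Blnk to 18.5 in Cd79a. The rate in other transcripts was not computed and introns were not examined, so these runs do not mark the genes as targets.

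Vav1 has 5 annotated transcripts, 3 of them coding, and the coding forms differ from the longest by short stretches of 72 and 117 bases. The longer stretch is shown here because no event is listed for Vav1 and because the gene count sums over all forms. It was read from the GENCODE M21 transcripts of GRCm38 in the direction of transcription, with runs of at least 3 G in capitals.
Vav1: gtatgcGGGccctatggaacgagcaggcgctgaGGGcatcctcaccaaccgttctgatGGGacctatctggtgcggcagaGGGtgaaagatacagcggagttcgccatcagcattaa
The stretch, 117 bases at chr17:57311784-57311900 on the plus strand, is exon 23 and holds 4 such runs. Its length is a multiple of 3. The gene-level values of Vav1 above cannot tell its forms apart.

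The other genes of the pathway were examined as a list of 47, from coreceptors to calcium channels, chosen with earlier results of these data known. Of these, 12 (25.5%) passed the same test, 3 higher and 9 lower in Hnrnpf bKO, against 4.15% of all genes higher and 2.83% lower. Among the 707 abundant genes of all kinds, 12.0% were higher and 7.64% lower, and the median of the mean counts of the list was 3358, below that of the 10 genes (8234). The median log2 fold change was −0.07 over the 47 genes, −0.02 over the 10 genes and −0.00229 over all genes. No gene of either list passed both the test and a 2-fold change, which 0.899% of all genes and 0.141% of the 707 abundant genes did.

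Cr2 (CD21), the complement receptor that lowers the threshold of BCR signaling and was also used to gate the cells, stood at 1084 and 907 CPM in WT, against 718 and 708 in Hnrnpf bKO (72.2% of WT, adjusted p = 0.0014 from edgeR). Cr2 is also 1 of 7 marginal zone B cell markers, of which 3 were lower and 2 higher in Hnrnpf bKO. Of all genes tested, 2.83% were lower and 4.15% higher. The part of marginal zone B cells in the counts of Cr2 was not tested. Cd81, a tetraspanin that associates with CD21, was at a log2 fold change of 0.02 (adjusted p = 0.848 from edgeR).

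Plcg1, the paralog of Plcg2 that serves mainly in T cells, had the largest rise of the list. Its counts were 1240 and 1355 in WT, against 1695 and 1971 in Hnrnpf bKO, a rise to 148% of WT (95% interval 135% to 163%, adjusted p = 1.62e-04 from edgeR). The FPKM of Plcg2 over that of Plcg1 was therefore 12.7 and 13.7 in WT, against 8.44 and 7.88 in Hnrnpf bKO, and Plcg2 remained the main form in every library. Zhx3, which overlaps Plcg1 on the opposite strand, held 254 and 261 counts in WT, against 284 and 331 in Hnrnpf bKO (18.0% of the counts of Plcg1 over the 4 libraries). Prkcd, a protein kinase C that restrains autoreactive B cells, also rose, from 448 and 446 CPM in WT to 521 and 542 in the bKO (log2 fold change 0.26, adjusted p = 0.00619 from edgeR). The FPKM of Prkcb over that of Prkcd was 0.672 and 0.669 in WT, against 0.503 and 0.504 in Hnrnpf bKO. These ratios did not overlap between the groups and were not tested. Each divides a gene lower in both Hnrnpf bKO libraries by a gene higher in both, so the groups had to lie apart. The FPKM of Syk over that of Btk also lay apart, at 1.96 and 1.94 in WT against 2.07 and 1.98 in Hnrnpf bKO. Neither Syk nor Btk passed the test.

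**Figure D3:**
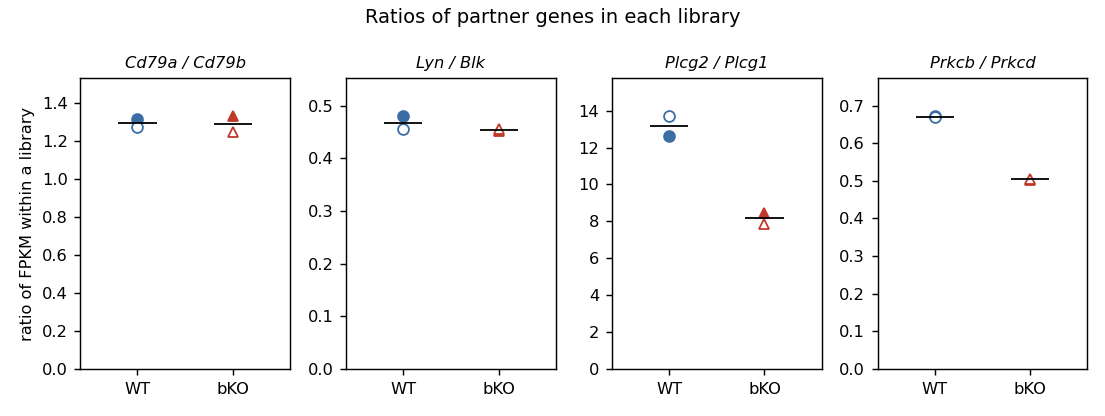
Ratio of the FPKM of paired genes within each library, with lines at the group means (n = 2 libraries each). Circles are WT and triangles Hnrnpf bKO, filled for replicate 1. The groups overlap for Cd79a over Cd79b and for Lyn over Blk, and lie apart for Plcg2 over Plcg1 and Prkcb over Prkcd.

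By role, 4 of 5 genes of the phosphoinositide 3-kinase (PI3K) arm passed, 2 of 11 adaptors, 2 of 7 genes of calcium release, 1 of 7 of the protein kinase C and CBM complex group, 0 of 7 exchange factors and GTPases, 0 of 2 ubiquitin ligases, and 3 of 8 coreceptors and tyrosine kinases. The share passing was 6.97% of all genes and 19.7% of the abundant genes, and no difference between roles was tested. Pik3cd, the catalytic subunit p110δ, rose (log2 fold change 0.22, adjusted p = 0.0212 from edgeR). Its regulatory partner Pik3r1 fell (−0.26, adjusted p = 0.0113), as did the adaptor Pik3ap1, or BCAP (−0.22, adjusted p = 0.0246), and the phosphatase Inpp5d, or SHIP1 (−0.31, adjusted p = 0.0134). The adaptors Shc1 (−0.33, adjusted p = 0.00695) and Themis2 (−0.31, adjusted p = 0.0029) and the calcium channel Itpr3 (−0.21, adjusted p = 0.027) fell as well, all by edgeR's quasi-likelihood test. With limma-trend on log2(FPKM + 0.1), 46 genes of the list were kept and 1 passed, which is none of those named here. In that fit 45 of all 13570 genes passed. For all 12 genes past edgeR's test the 2 groups of libraries did not overlap, which adds no support, since the same libraries picked these genes. The groups did not overlap for 50.4% of all genes tested and 67.8% of the abundant genes. With 1 library left out, 6 of the 12, among them Cr2, Themis2, Plcg1 and Prkcd, passed in each of the 4 fits. Pik3ap1 was lost without WT replicate 2 or Hnrnpf bKO replicate 2 (adjusted p of 0.107 and 0.180 from edgeR), Pik3cd without Hnrnpf bKO replicate 2 (0.204) and Inpp5d without WT replicate 2 (0.0898, with a log2 fold change of −0.18). Pik3r1 and Shc1 were lost without Hnrnpf bKO replicate 1 (adjusted p of 0.0523 and 0.0520 from edgeR), and Itpr3 without WT replicate 1 or Hnrnpf bKO replicate 1 (0.0901 and 0.231).

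**Figure D4:**
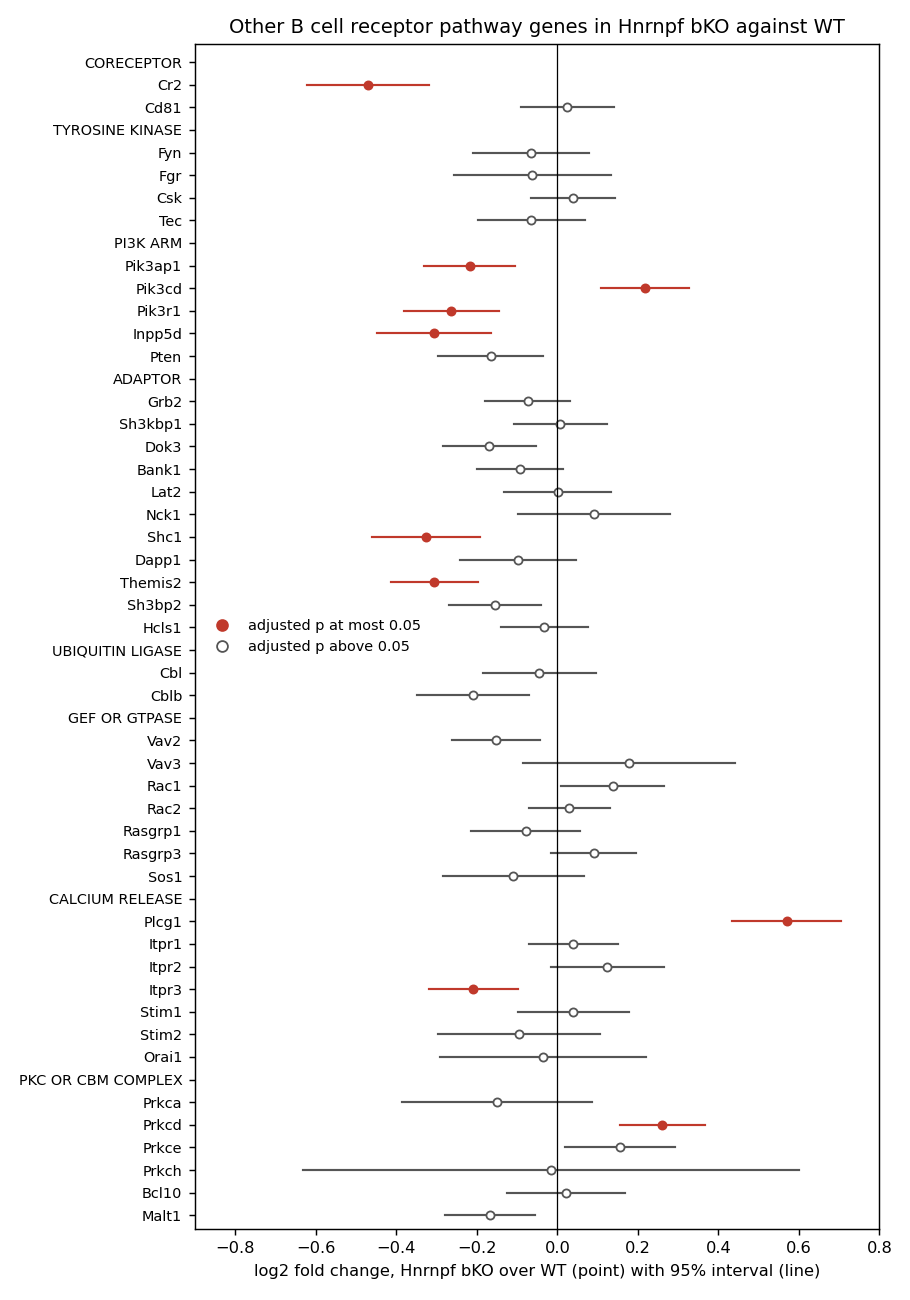
Log2 fold change in Hnrnpf bKO over WT of 44 other genes of the BCR pathway by role, with 95% intervals from edgeR. The 10 filled points passed the test, 3 to the right of 0 (Pik3cd, Plcg1 and Prkcd) and 7 to the left.

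In the same table of splicing events, 7 of the 47 genes are listed and 0 of the 10, a difference that was not tested. An event is listed for 10.6% of genes with a mean count of 100 or more and 13.4% of the 707 abundant genes. Exon skipping is listed for Csk, the kinase that inhibits the Src family, for Tec, a relative of Btk, and for the adaptors Lat2, Shc1 and Sh3bp2 and the calcium channel Itpr1. A retained intron is listed for Prkcd. Of these 7 genes, Shc1 and Prkcd passed the test of mRNA abundance.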

How the data were processed

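The 4 poly(A) RNA libraries were grouped by their labels, 2 as WT and 2 as Hnrnpf bKO. The authors trimmed reads with Cutadapt 1.9.1, aligned them to GRCm38 with Hisat2 2.0.1 and counted reads per gene with HTSeq 0.6.1. The deposited counts are whole numbers without normalization. FPKM, deposited beside the counts, divides each count by the gene's exonic length and the library total. The strand setting and the annotation release are not given in the sources used here. The authors' deposited splicing table (rMATS) lists significant events. Its FDR and inclusion level difference are the authors' own comparison and were not used here, only which genes and event types are listed.

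Counts were compared with edgeR 4.0.16 in R 4.3.3 (TMM, filterByExpr, quasi-likelihood F test, Benjamini-Hochberg adjustment over 14123 genes). Intervals are 95% intervals from the standard error and the degrees of freedom of this fit. For 2 against 2 libraries the smallest two-sided p of an exact permutation test is 0.333. The paper's methods name DESeq2, run here as an alternative (1.42.0), with RLE size factors, other filters, limma 3.58.1 on log2 FPKM, the replicate number as a block, and each library left out. The comparison was tested on simulated data. The members and lists were chosen with earlier results of these data known. The genes named were the 10 members, Hnrnpf and every gene of the list of 47 that passed an adjusted p of 0.05 or has a listed event, except that some items are not reported here, and Cd81, Gm11787, Gm32220 and Zhx3 were named after their values were seen, as were the myeloid markers S100a8 and S100a9. Transcripts are those of GENCODE M21 (GRCm38). Near-identical transcripts were sought with blastn 2.17.0. Summed marker levels of plasma cells were 328 to 353 CPM in WT and 321 to 326 in Hnrnpf bKO. Those of marginal zone B cells were 1525 to 1708 and 1324 to 1337, of which Cr2 alone held 1084 and 907 in WT and 718 and 708 in Hnrnpf bKO. Those of transitional B cells were 423 to 433 and 390 to 414. Of the 3 transitional markers tested, 1 passed, Cd93, whose protein the sort excluded. Its counts were higher in Hnrnpf bKO, 261 and 354 against 138 and 222 in WT (log2 fold change 0.85, adjusted p = 0.00661 from edgeR). The sums were 7.58 to 10.6 and 8.58 to 9.56 CPM for NK cells, and 2.43 to 3.61 and 2.21 to 2.80 for erythroid cells or platelets.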

Additional observations from a re-analysis of the deposited data

How the results depend on the processing

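The number of the 10 genes past an adjusted p of 0.05 was 0 in 11 of 12 alternative fits and 1 (Prkcb) with no filter on low counts. With a 2-fold threshold it was 0 in all 12, as it was for the 47 other pathway genes. Of those 47, between 9 and 15 passed under edgeR and DESeq2. With limma-trend on log2(FPKM + 0.1) and on log2(FPKM + 1), 46 of the 47 were kept and 1 passed, which is none of those named here. Of all 13570 genes in these fits, 45 and 41 passed. On log2(FPKM + 0.1) with no filter, 0 of the 47 passed. There 1 gene passed of all genes and 2970 had an unadjusted p under 0.05 from limma-trend. The cause was not tested. With 1 library left out, the count ran from 9 to 13 and that of the 10 genes was 0 each time. In these fits 1 group has 1 library, which is assumed to vary like the others. The signs of all 12 called genes of the list of 47 were the same in every fit. This adds no support, since these genes were picked in the same libraries and their groups did not overlap. With 1 library left out, the log2 fold change ran from −0.094 to 0.038 for Blk, −0.038 to 0.090 for Btk, −0.045 to 0.048 for Blnk, −0.0018 to 0.080 for Csk and −0.14 to 0.0076 for Tec, turning sign for Blk and Btk without WT replicate 2, for Blnk without WT replicate 1 or Hnrnpf bKO replicate 1, for Csk without Hnrnpf bKO replicate 2 and for Tec without Hnrnpf bKO replicate 1. For Lat2, at 0.0008 in the comparison as reported, it turned with RLE size factors (−0.00013), with no filter on low counts (−0.0018), with limma-trend on log2(FPKM + 0.1), with a filter and without (−0.0072 in both), on log2(FPKM + 1) (−0.0072), and without WT replicate 1 or Hnrnpf bKO replicate 1, in a range from −0.079 to 0.093 with 1 library left out.

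The labels number the libraries but name no pairing. Deviations of same-numbered libraries from their group means had a correlation of −0.0831 over 9875 genes, and with 2 pairs this cannot show a pairing. With the replicate number as a block, 0 of the 10 genes and 9 of the 47 passed, without Pik3ap1, Pik3cd and Itpr3 (adjusted p of 0.0815, 0.0678 and 0.0957 from edgeR), and 0 passed a 2-fold change. Stricter thresholds on the splicing events were not run, since they need the FDR and inclusion level difference, which were not used here.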
